A study of Xenopus laevis with 22 samples.

Results

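E2f4-GFP was bound at 175 peaks that lay at divergent gene pairs, out of 12778 peaks called in Xenopus laevis animal caps that also carried Multicilin. A peak was counted as divergent when its centre had at least 1 start of a minus-strand transcript and at least 1 start of a plus-strand transcript within 1000 bases, with the minus-strand start at the lower position, so that the genes are read away from each other. Each of the 175 peaks had exactly 1 start of each kind in its window. They fell at 170 pairs, of which 5 carried 2 peaks each, and so at 340 transcripts, here called targets. Of the other peaks, 4376 had starts of a single direction in the window and 8111 had no start there. The other 116 had starts of both strands, but no minus-strand start at a lower position than a plus-strand start. The farthest start of a counted peak was 976 bases away (upf2/dhtkd1), and the first peak left out had a start at 1055 bases (mei1/nhp2l1).

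The caps were ectoderm explants dissected at stage 10, from embryos injected with synthetic RNA. All RNA-seq groups carried MCIDAS-HGR, which is Multicilin fused to the hormone-binding part of the human glucocorticoid receptor, and 20 µM dexamethasone was added at mid-stage 11. Caps with MCIDAS-HGR alone are called Multicilin caps, and caps that also received dnE2f4, a dominant-negative form of E2f4, are called dnE2f4 caps. Collection was 3, 6 or 9 h later at 22 °C, which is stage 13, 16 or 18, with 20 caps for each condition and 3 libraries in each group as deposited. No RNA-seq group lacked Multicilin, so the time course also contains whatever changes in these explants without it. For ChIP-seq, about 300 caps per condition carried E2f4-GFP alone or E2f4-GFP with MCIDAS-HGR and were collected at 6 h. Dexamethasone is stated for caps with inducible constructs, and whether caps with E2f4-GFP alone received it is not given in the sources used here. The authors pooled 2 replicates into 1 peak list per condition, so peaks have no replicate error. MCIDAS-HGR, dnE2f4 and E2f4-GFP were all supplied by injection, and the tissue was explants rather than embryos.

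The 18 RNA libraries held 9159519 to 38099850 estimated fragments. Tests used 14 of them. Replicate 1 of dnE2f4 at 3 h and replicate 3 of dnE2f4 at 9 h had been scored on another set of targets. In the pair labelled replicate 2 at 9 h, e2f4 went against the labels, with a CPM (its count scaled to a library of 1000000) of 1427 under the Multicilin label and 14.2 under the dnE2f4 label. In the others e2f4 read 14.1 to 36.1 CPM without dnE2f4 and 1235 to 11078 CPM with it. Multicilin groups thus held 3, 3 and 2 libraries in order of time, and dnE2f4 groups 2, 3 and 1. The epidermal marker list summed to 8657 to 11550 CPM in the 14 libraries, against 0.652 to 9.11 CPM for mesoderm and 0.512 to 19.9 CPM for endoderm. The neural list summed to 48.1 to 178 CPM. These sums are over unlike numbers of tested targets, namely 25 epidermal, 6 mesoderm, 4 endoderm and 4 neural. Replicates are called biological without a statement of separate clutches, so p-values measure the spread between these samples. In bulk RNA, fewer cells of a type and less RNA per cell cannot be told apart.

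E2f4 belongs to the E2F family, which binds DNA with a DP partner and is best known for control of cell-cycle genes. Multicilin has no DNA-binding domain of its own and acts in a complex with E2f4 or E2f5 and DP1, which turns on the genes that build the many centrioles of multiciliated cells. Divergent promoters are stretches shared by a pair of genes that point away from each other, and they are common upstream of DNA repair, cell-cycle and housekeeping genes in vertebrates. A factor bound there is near both starts, so binding alone does not say which of the genes it acts on. Roles named below are those known from human and mouse work.

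The starts of the pairs were close together, and the peaks sat on or beside them. The distance between starts had a median of 128 bases over the 175 peaks (quartiles 64.5 and 276, range 1 to 1156). At 72 peaks the starts were at most 100 bases apart, and at 113 they were closer together than the 211 bases that every one of these peaks spans. The peak centre lay a median of 66 bases from the nearer start and 205 bases from the farther one. Relative to the midpoint of the starts it lay a median of 20.5 bases towards the minus-strand gene (-20.5 bases, range -735 to 838), and 76 centres were within 100 bases of the midpoint, 117 within 200 and 167 within 500. The centre fell between the starts at 49 peaks, past the start on the side of the minus-strand gene at 68 and on that of the plus-strand gene at 58. Where a peak is said below to lie inside a gene, its centre was past the start. The other end of the gene was not checked. The peak covered both starts in 40 cases, the minus-strand start alone in 42, the plus-strand start alone in 33 and neither in 60. The base numbering of the starts is not stated, so distances may be off by 1 base, and 4 centres lay within 1 base of a start. Starts come from assembled transcripts whose 5′ ends may be incomplete, which moves a start into the gene and widens the distance.

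**Figure D1:**
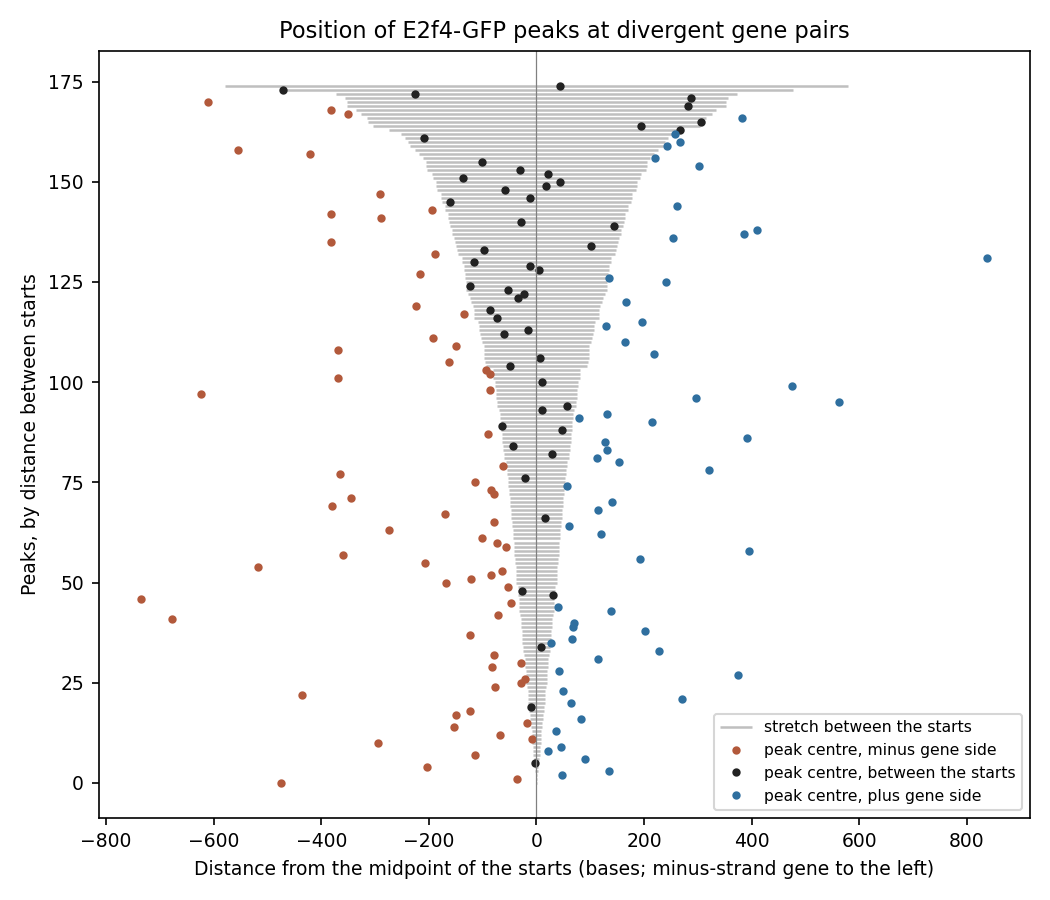
Position of each of the 175 peaks, one per row and sorted by the distance between starts. The x axis is distance in bases from the midpoint of the starts, grey bars join the starts, and points are peak centres, 49 of them between the starts, 68 on the side of the minus-strand gene and 58 on the side of the plus-strand gene.

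The ends of that range show how far the geometry varied. The starts of ppme1, a phosphatase methylesterase gene, and c2cd3, needed for centriole elongation, were 1 base apart on scaffold 198991 of the JGIv7b assembly, and the peak at bases 501599 to 501809 lay inside ppme1, centred 474 bases from its start. The starts of anapc15, a subunit of the anaphase-promoting complex, and ccm2, a vascular adaptor gene, were 2 bases apart on scaffold 30080, and the peak at bases 1927225 to 1927435 covered both. At the other end, ube2k, a ubiquitin-conjugating enzyme gene, and smim14 had starts 953 bases apart on scaffold 31653, with the peak at bases 5846961 to 5847171 centred 5 bases from the ube2k start. The starts of bcat1, for an enzyme of branched-chain amino acid breakdown, and ccdc155 were 1156 bases apart on scaffold 132123, and the peak at bases 491509 to 491719 lay near the middle, 622 and 534 bases from them. So the closest pairs could carry a peak well to one side, and a wide pair could carry it at either start or in the middle. The 5 pairs with 2 peaks were phc3/prkci, sec61b/alg2, cct7/pradc1, upf2/dhtkd1 and wrb with a neighbour that has no name in the files.

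The pairs were matched by name and order to the X. laevis v10.1 RefSeq gene table. Both genes were found there for 134 pairs, and in 115 of these they were direct neighbours, 30 of them on both an L and an S chromosome, the copies left by the genome duplication of this species. Of the pairs described below, sass6/trmt13, dbf4/slc25a40, hnrnpul2/ttc9, tmem180/cdr2 and gins1/mnf1 had both genes found there but not as direct neighbours. In the peak set itself 9 gene pairs appeared at 2 places, among them nme6/rabl2b, adam9/tm2d2, map2k1/tipin and fam136a/snrpg. Copies share sequence, and the RNA kit kept no strand, so fragments of copies, or of genes whose transcripts overlap, cannot always be told apart.

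Most of these peaks were also called without Multicilin. Of the 175, 116 (66.3%) overlapped a peak of the list from caps with E2f4-GFP alone by at least 1 base. The share was 68.0% for the 4376 peaks with starts in a single direction and 33.8% for the 8111 peaks with no start in the window. The list without Multicilin held 15693 peaks from 24997566 tags, against 15313243 tags for the list with it, and 237 of its peaks were divergent by the same rule. With 1 pooled list per condition there is no test of these shares. Divergent pairs were also common without a peak: 447 pairs of targets had starts at most 1000 bases apart, 169 of them had a divergent peak and 275 had no peak near either start. The latter 275 pairs had starts a median of 109 bases apart and are used below as the comparison.

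Of the 340 targets, 331 had enough counts to be tested, and both genes were tested at 161 pairs. The 9 not tested were cryaa on scaffold 347078, afm, pth1r, s100a1, fbxo24, tigd5, fam134b, sirpb1 and slc13a2. Over the 14 libraries the median level per transcript length was 8.39 CPM per kb for the 331, 5.48 for the 528 targets of pairs without a peak, 8.79 for the 4170 targets at peaks of a single direction and 4.03 for all 20043 targets tested.

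With dnE2f4 at 6 h, 25 of the 331 targets were lower than in Multicilin caps and 0 were higher (edgeR quasi-likelihood test, Benjamini-Hochberg adjusted p under 0.05 over all 20043 targets). At unadjusted p under 0.05, 61 were lower and 18 higher, 23.9% of the 331 against 16.3% of all targets. DESeq2 gave 41 lower and 1 higher, 13.1% of the 321 to which it gave an adjusted p against 7.85% of all such targets. The share lowered was 7.55%, where 2.57% of all targets tested were lower and 0.868% higher (3.44% in either direction). It was 1.14% for the targets of pairs without a peak (6 of 528) and 5.56% for those at peaks of a single direction (232 of 4170). The differences between these shares were not tested. The median log2 fold change of the 331 was -0.01, against 0.03 for all targets. The lowered genes were thus a minority of those at divergent peaks. Replicate numbers paired the 6 h libraries, and with the number as a block 63 targets were lower and 13 higher, or 23.0%, where 15.9% of all targets were called in the same fit. In the 16 libraries that include the pair labelled replicate 2 at 9 h, edgeR called 0 of all targets at 6 h. It thus called 0 of these targets (50 at unadjusted p under 0.05). All 25 were still called from DESeq2 and from the blocked fit, and 20 were from the 6 libraries of 6 h alone.

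The genes of each pair were then read together, without a test of the difference between them. Both genes were lower at 3 of the 161 pairs, 1 gene was lower at 19, and at 139 neither passed. Of all 421 head-to-head pairs tested, with or without a peak, 4 had both genes lower (0.95%) and 23 had 1 gene lower. At the 259 pairs without a peak, 4 had 1 gene lower. A partner that did not pass is not thereby shown to be unchanged. No pair had genes that passed in opposite directions, as no target at these pairs passed upwards. The count of pairs with both genes lower was 12 with the replicate block and 7 from DESeq2. With the block, 13 of all 421 head-to-head pairs had both genes lower (3.09%). From DESeq2 it was 8 of the 392 head-to-head pairs in which both genes were given an adjusted p (2.04%). Among the pairs without a peak 1 of 259 had both genes lower, namely ggps1/arid4b, at -0.81 ± 0.19 and -1.10 ± 0.22 (log2 fold change ± SE), a pair named after its values were seen. The log2 fold changes of the genes of a pair were set against each other across pairs. With a peak, Pearson r was 0.50 and Spearman rho 0.48 over 161 pairs, against 0.25 and 0.23 over the 259 pairs without one. Where both genes averaged at least 10 CPM, r was 0.55 over 61 pairs and 0.19 over 85. These values describe pairs measured in the same libraries, and fragments shared between neighbours without strand would enter them.

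**Figure D2:**
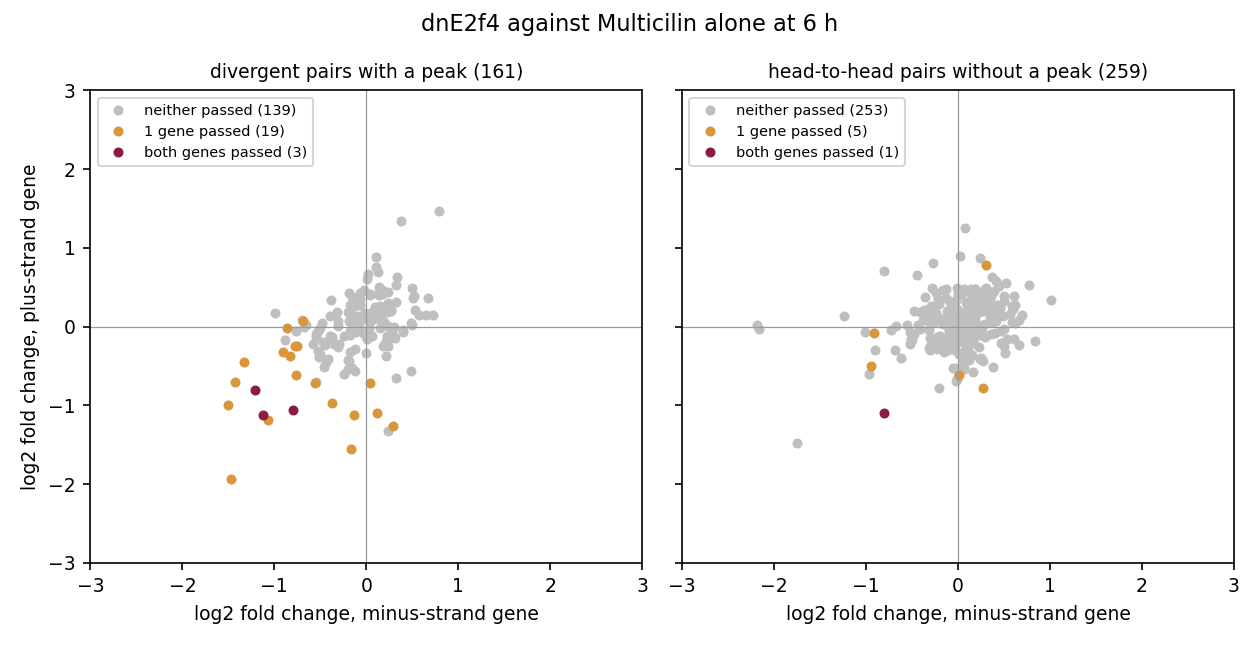
Log2 fold change of the minus-strand gene (x axis) and the plus-strand gene (y axis) of each pair for dnE2f4 against Multicilin alone at 6 h, at the 161 divergent pairs with a peak (left) and the 259 pairs without (right). Both genes passed at 3 pairs on the left, all in the lower left corner, 1 gene passed at 19, and 139 grey points passed in neither gene.

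The pair bora/mzt1 joins regulators of cell division. Bora activates the mitotic kinases Aurora A and Plk1, and Mzt1 is a small component of the gamma-tubulin ring complex, which nucleates microtubules at centrosomes. Their starts were 137 bases apart on scaffold 78860, and the peak at bases 8569745 to 8569955 was centred 62 bases inside mzt1. At 6 h bora read 109.8, 136 and 168 CPM in the Multicilin libraries and 60.2, 53.3 and 65.5 CPM in the dnE2f4 libraries. The groups did not overlap, and the log2 fold change was -1.21 ± 0.19 (adjusted p = 0.00621). For mzt1 the values were 14.1, 13.0 and 13.5 CPM against 8.95, 6.80 and 7.49 CPM. These groups did not overlap either, with a log2 fold change of -0.80 ± 0.17 (adjusted p = 0.023). Between 3 and 9 h in Multicilin caps bora rose by 1.43 ± 0.21 and mzt1 by 0.99 ± 0.18 on the log2 scale.

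The pair spice1/zdhhc23 joins a centriole duplication gene and a gene of the palmitoyltransferase family. Their starts were 411 bases apart on scaffold 132381, and the peak at bases 119823 to 120033 was centred 97 bases inside zdhhc23 and 508 bases from the spice1 start. At 6 h spice1 read 169.8, 156 and 213 CPM in Multicilin libraries and 97.4, 97.1 and 115 CPM in dnE2f4 libraries. All dnE2f4 values were below all Multicilin values, with a log2 fold change of -0.80 ± 0.15 (adjusted p = 0.012). For zdhhc23 they were 51.7, 34.7 and 52.1 CPM against 20.9, 22.8 and 22.7 CPM. Again the groups were apart, at -1.06 ± 0.17 (adjusted p = 0.00653). This was also the 1 pair with both genes lower at 9 h, among all 421 head-to-head pairs tested, with or without a peak (0.238%). At 9 h the single dnE2f4 library read 96.7 CPM for spice1 against 244 and 308, and 20.4 CPM for zdhhc23 against 52.0 and 63.9. The fitted changes there were -1.51 ± 0.23 and -1.51 ± 0.27 (adjusted p = 0.0131 and 0.0254).

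The pair rabl2b/nme6 occurred at 2 places. Rabl2b is a small GTPase that takes part in ciliary transport, and Nme6 belongs to the nucleoside diphosphate kinase family. On scaffold 12518 the starts were 119 bases apart and the peak at bases 5666834 to 5667044 was centred 53 bases inside nme6. There rabl2b read 212, 131 and 171 CPM in Multicilin libraries at 6 h and 103, 62.1 and 72.1 CPM in dnE2f4 libraries, and nme6 read 21.2, 15.7 and 15.7 CPM against 9.57, 7.10 and 7.39 CPM. Both sets of values were apart, and both genes passed, at -1.12 ± 0.28 (adjusted p = 0.0475) and -1.12 ± 0.20 (adjusted p = 0.0121). On scaffold 253809 the starts were 24 bases apart and the peak at bases 2316407 to 2316617 covered both. There rabl2b passed, at -1.43 ± 0.22, with 99.4, 92.7 and 145 CPM against 37.7, 39.1 and 48.9. The nme6 copy there, at 3.01, 2.46 and 2.60 CPM against 1.69, 1.69 and 1.52, did not (-0.71 ± 0.27, adjusted p = 0.207). Fragments that these copies share may have been split between them.

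The lists of pathway genes held 28 of the 340 targets. The centriole list held 6 of them. Of these ccp110, spice1, wdr67 and sass6 were lower at 6 h, and cep89 and cep57 did not pass. Of all 68 centriole targets tested, 42 were lower and 0 higher, with or without such a peak, and their median log2 fold change was -0.82. For ccp110, whose product caps the distal end of centrioles, the Multicilin libraries read 214, 240.0 and 288 CPM and the dnE2f4 libraries 98.3, 114 and 114 CPM, a log2 fold change of -1.19 ± 0.13 (adjusted p = 0.000978). The groups were far apart, and its partner gde1, a glycerophosphodiesterase gene, had a change of -1.06 ± 0.30 that did not pass (adjusted p = 0.0815). The starts were 96 bases apart on scaffold 9994, with the peak at bases 5409861 to 5410071.

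For sass6, which encodes the hub of the centriolar cartwheel, the values were 96.6, 97.3 and 116 CPM against 60.6, 70.3 and 60.7 CPM (-0.69 ± 0.12, adjusted p = 0.0105). Its partner trmt13, a tRNA methyltransferase gene whose start lies 16 bases away, read 3.58, 4.15 and 6.50 CPM against 3.45, 6.20 and 5.32 CPM (0.07 ± 0.28). The peak, at bases 6157864 to 6158074 of scaffold 47606, was centred 1 base from the sass6 start and 17 bases from that of trmt13. So a peak that covered both starts stood beside a gene whose groups were apart and one whose groups overlapped.

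For wdr67, a centriolar satellite gene, the values were 388, 321 and 401 CPM against 237, 219 and 219 CPM (-0.72 ± 0.15, adjusted p = 0.02), and the groups did not overlap. Its partner derl1, for protein disposal at the endoplasmic reticulum, read 39.8, 38.3 and 39.9 CPM against 37.3, 40.6 and 43.6 CPM (0.04 ± 0.12). The peak, on scaffold 220448 at bases 1385141 to 1385351, lay 352 bases inside wdr67. The remaining members of the list were cep89, a distal appendage gene beside c19orf40 of the Fanconi anaemia pathway, and cep57, a pericentriolar gene beside fam76b. For cep89 the values were 94.7, 91.9 and 96.8 CPM against 69.2, 64.7 and 63.9, apart but not past the threshold (-0.52 ± 0.17, adjusted p = 0.137). For cep57 they were 1.93, 1.98 and 1.24 CPM against 3.22, 2.67 and 1.95, which overlapped (0.63 ± 0.30, adjusted p = 0.332).

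Other lowered genes outside the list also act at centrioles or cilia. They are named, with the rest of the 25, after their values were seen. How many of all 331 targets have such roles was not counted. For kiaa0753, a centriolar satellite gene, the values were 128, 203 and 190.0 CPM against 53.8, 80.5 and 73.0 CPM (-1.33 ± 0.20, adjusted p = 0.00391). For wdr90, whose product lies in the centriole wall, they were 406, 641 and 625 CPM against 132, 244 and 228 (-1.47 ± 0.25, adjusted p = 0.00917). For c2cd3 they were 372, 517 and 493 CPM against 193, 264 and 251 (-0.97 ± 0.22, adjusted p = 0.0332), and for tchp, which encodes the centriolar protein trichoplein, 276, 200.4 and 272 CPM against 139, 140.1 and 131 (-0.87 ± 0.15, adjusted p = 0.00926). The groups did not overlap in these 4 genes, which were named for passing in the same libraries, so this adds no further support. The same holds for the pairs above that were named because both genes passed. Groups that were apart in a gene that did not pass are no support either. The share of all targets with groups apart was not counted. The partners of kiaa0753, c2cd3 and tchp, namely txndc17, ppme1 and gltp, did not pass (-0.45 ± 0.34, -0.37 ± 0.23 and -0.02 ± 0.21). Nor did the unnamed partner of wdr90, at -1.93 ± 0.56, whose 3.19, 8.44 and 9.10 CPM stood against 0.879, 2.40 and 2.28.

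The remaining lowered genes had other or mixed roles. The cullin subunit gene of the anaphase-promoting complex, anapc2, changed by -0.72 ± 0.15, and its partner ssna1, a microtubule-binding centrosome gene, had -0.56 ± 0.17 and did not pass. The kinase gene map2k1 (MEK1) changed by -0.75 ± 0.13 beside the replication fork gene tipin, which had -0.25 ± 0.14. The Hsp90 activator ahsa1 changed by -1.10 ± 0.20 beside the vesicle trafficking gene vipas39, which had 0.12 ± 0.24. The metalloprotease gene adam9 changed by -1.50 ± 0.24 and the adaptor gene kctd6 by -1.55 ± 0.36, beside tm2d2 at -0.999 ± 0.264 and pdhb, of the pyruvate dehydrogenase complex, at -0.16 ± 0.11. The others were mtfr1, cidec, rnf5, wdr93, ppp2r3c and c1orf228, with log2 fold changes of -1.27 to -0.77. None of the partners of the genes in this paragraph passed.

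**Figure D3:**
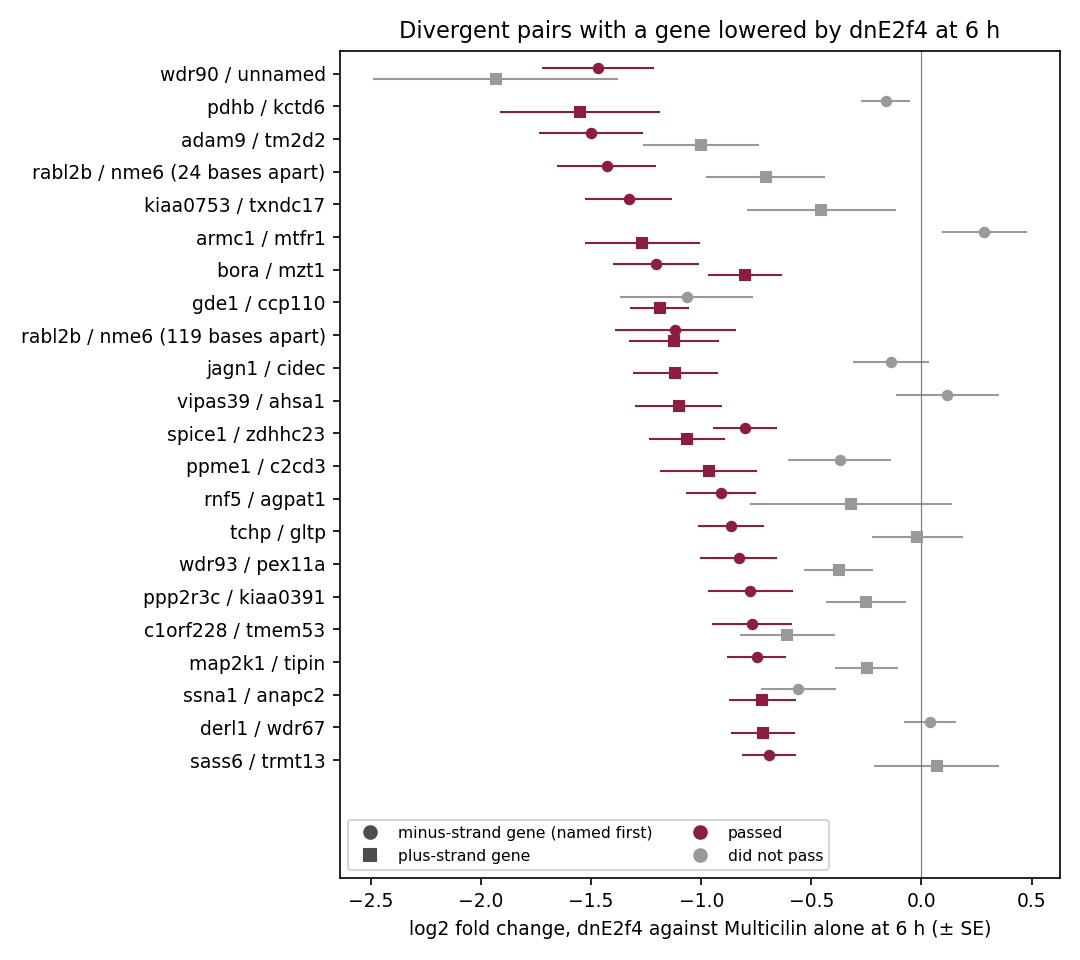
Log2 fold change for dnE2f4 against Multicilin alone at 6 h, with SE bars, for both genes of the 22 divergent pairs in which at least 1 gene passed. Circles are minus-strand genes and squares plus-strand genes. Dark red points passed and grey points did not, so the 3 pairs with both genes in dark red stand out from the 19 with a single one.

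The gene that passed was not always the one nearer to the peak. At the 19 pairs with 1 lowered gene, the peak centre was nearer to the start of that gene in 12 and nearer to the start of the other in 7. Among the 7 was ppme1/c2cd3, at 474 and 475 bases, a difference no larger than the 1 base by which distances may be off. Of the targets whose start was the nearer one 15 of 168 were lower, and of those with the farther start 10 of 163. The centre lay between the starts at 1 of the 22 pairs, wdr93/pex11a, while it lay there at 49 of all 175 peaks. Of the 22 pairs, 20 (90.9%) had a peak that was also called without Multicilin. Counted by target, 23 of the 224 at such peaks were lower (10.3%) and 2 of the 107 at peaks called with Multicilin alone (1.87%), the latter being mtfr1 and cidec. None of these splits was tested.

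Markers of cell types moved with the treatment at 6 h. The multiciliated cell list of 5 genes summed to 6245 to 7221 CPM in Multicilin libraries and 4604 to 4676 CPM in dnE2f4 libraries. The ionocyte list read 132 to 251 CPM against 279 to 390 CPM, the goblet cell list 353 to 414 against 473 to 781 CPM, and the neural list 157 to 177 against 78.3 to 85.7 CPM. Their part in the changes at divergent pairs was not tested.

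At 3 h 1 target passed, tchp, and it was lower (0.302% of the 331, with 0.284% of all targets called, 0.269% lower and 0.015% higher). It read 118, 107 and 87.2 CPM in Multicilin libraries and 49.7 and 56.2 CPM in dnE2f4 libraries, which were apart (-0.98 ± 0.17, adjusted p = 0.0423). At unadjusted p under 0.05, 51 were lower and 0 higher, 15.4% of the 331 against 7.19% of all targets. DESeq2 called 21, all lower (8.54%, against 3.29% of all), and the replicate block 29, all lower (8.76%, against 3.1%). Without replicate 3 of the Multicilin caps 9 passed, and 202 of all targets. The call on tchp was kept without that library, without replicate 2 of the Multicilin caps at 6 h and without any 1 library of 9 h, and was lost without any other library.

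At 9 h 11 targets were lower and 0 higher (3.32%, with 1.13% of all targets called, 0.918% lower and 0.215% higher). At unadjusted p under 0.05, 58 were lower and 9 higher, 20.2% against 14.4% of all targets. The 11 that passed were ahsa1, bora, ccp110, kiaa0753, rabl2b on scaffold 253809, sass6, spice1, tchp, wdr67, wdr93 and zdhhc23, each of them also lower at 6 h. The 9 h comparison set 2 Multicilin libraries against 1 dnE2f4 library, whose spread was taken from the other groups. Without replicate 3 of the Multicilin caps, and from the 9 h libraries alone, no target at divergent peaks passed. Few of all targets passed in these fits, and the 11 kept their direction. With dnE2f4 replicate 3 joined by target 17 passed (5.14%, against 2.88% of all targets), 10 of the 11 among them. DESeq2 called 34 (11.5%, against 7.16%), and the replicate block gave 42 lower and 7 higher (14.8%, against 10.9%).

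The size of the change at 6 h was also compared with that at 3 h. A test of the difference between the dnE2f4 effects called 0 of the 331 targets and 1 of all 20043 targets. At unadjusted p under 0.05 there were 12 of the 331 and 827 of all targets. For bora the change was -0.73 ± 0.22 at 3 h, -1.21 ± 0.19 at 6 h and -1.72 ± 0.31 at 9 h. For ccp110 it was -0.67 ± 0.15, -1.19 ± 0.13 and -1.34 ± 0.21. In both genes the direction was the same at each time. No gain from 3 to 6 h was shown by the test, and the effect at 9 h was not tested against the earlier ones.

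**Figure D4:**
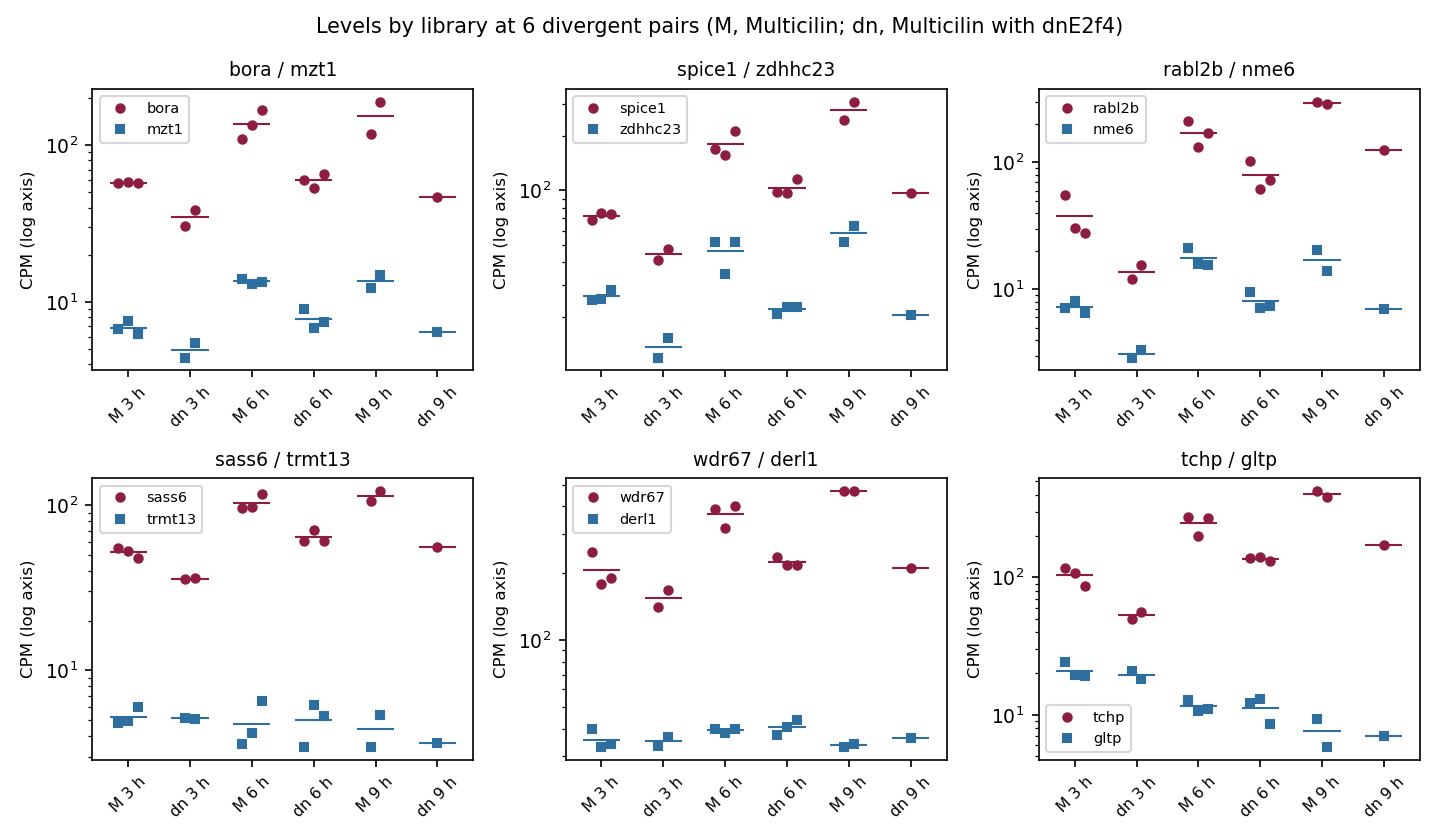
Level in CPM (log axis) of both genes of 6 divergent pairs in each of the 14 libraries, by group (M, Multicilin caps; dn, dnE2f4 caps; 3, 6 and 9 h). Points are libraries and bars group means. In the upper row both genes are lower in dnE2f4 caps at 6 h, with rabl2b/nme6 shown for scaffold 12518, and in the lower row sass6, wdr67 and tchp are lower while trmt13, derl1 and gltp overlap between the groups.

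In Multicilin caps the targets at divergent peaks moved both ways with time. From 3 to 6 h 107 rose and 82 fell (57.1%, with 52.1% of all targets called, 25.7% higher and 26.4% lower), from 3 to 9 h 123 rose and 119 fell (73.1%, with 66.1% of all, 33.4% higher and 32.8% lower), and from 6 to 9 h 53 rose and 56 fell (32.9%, with 28.8% of all, 14.3% higher and 14.5% lower). These splits depend on the scaling. Scaled by library size alone they became 96 and 130, 104 and 163, and 36 and 87, since the median of all targets then stood at -0.28, -0.46 and -0.18 on the log2 scale. Changes below are relative to that median. Cell type markers also moved from 3 to 9 h in these caps: the multiciliated cell list from 3383 to 3799 CPM at 3 h to 8981 to 9095 CPM at 9 h, the ionocyte list from 482 to 613 to 128 to 139 CPM, and the goblet cell list from 57.5 to 104 to 809 to 1232 CPM. Their part in the time changes was not tested.

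Time changes were read by pair in the same way. From 3 to 9 h both genes rose at 30 of 161 pairs and both fell at 32, and they moved in opposite directions at 26. Among all 421 head-to-head pairs, with or without a peak, the shares that did so were 15.7, 15.4 and 20.9%. At the 259 pairs without a peak the counts were 36, 33 and 62. From 3 to 6 h both rose at 26 pairs with a peak and both fell at 17, against 12 in opposite directions. The shares among all 421 were 11.9, 7.84 and 11.6%. From 6 to 9 h the counts were 3, 6 and 7, and the shares among all 421 were 1.9, 3.8 and 4.04%. Pearson r between the genes of a pair was 0.33 from 3 to 9 h and 0.40 from 3 to 6 h, against 0.14 in both cases without a peak. From 6 to 9 h it was 0.21 with a peak and 0.15 without. The difference in shares was not tested, and the comparisons share libraries. With the block the count from 6 to 9 h rose to 27 pairs moving one way, and from the compared groups alone it was 3. Of all targets these fits called 9206 and 4343, against 5767 in the main fit. The shares of all head-to-head pairs in these fits are not given.

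**Figure D5:**
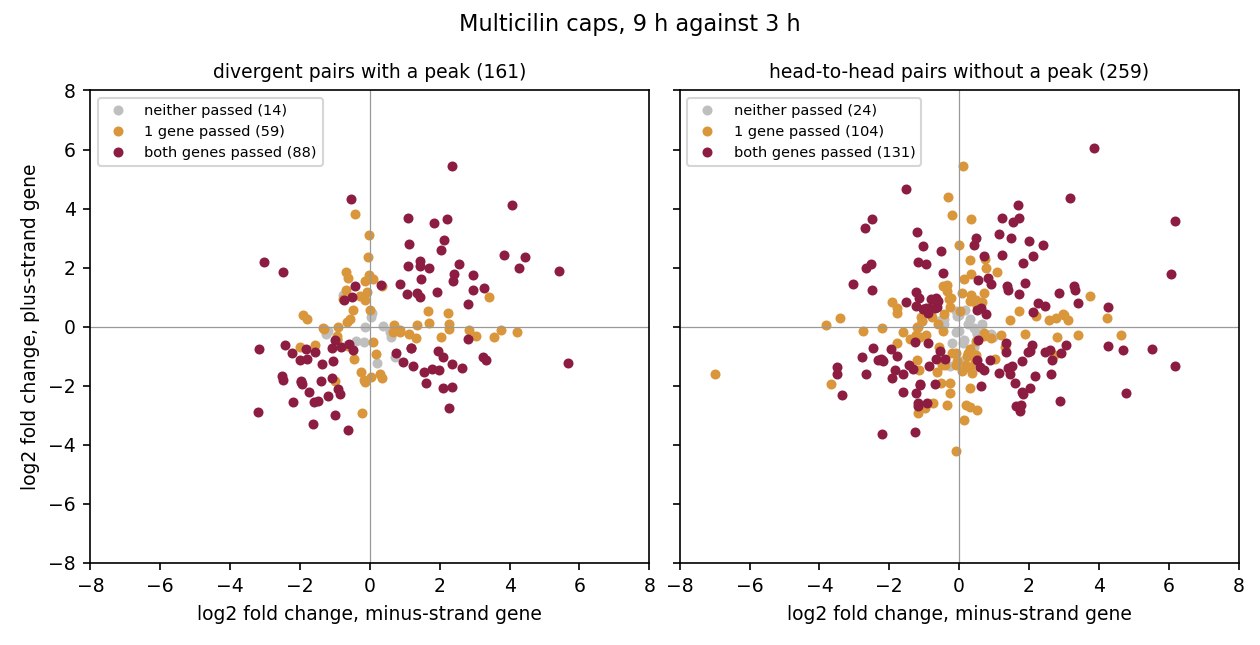
Log2 fold change from 3 to 9 h in Multicilin caps for the minus-strand gene (x axis) and the plus-strand gene (y axis), at the 161 divergent pairs with a peak (left) and the 259 pairs without (right). Among pairs with a peak both genes passed at 88, of which 30 lie in the upper right, 32 in the lower left and 26 in the other corners.

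The 4 pairs that rose together most were lrrc34/lrriq4, ulk4/trak1, phtf2/tmem60 and ndufa8/morn5. At lrrc34/lrriq4, both leucine-rich repeat genes, with starts 132 bases apart on scaffold 58517 and the peak at bases 3743835 to 3744045, lrrc34 read 14.9, 18.5 and 15.1 CPM at 3 h and 216 and 332 CPM at 9 h, and lrriq4 1.49, 2.29 and 2.44 CPM and then 33.6 and 37.2 CPM. Both were far apart between the times, at 4.08 ± 0.22 and 4.11 ± 0.24. At ulk4/trak1, a pseudokinase gene linked to ciliated ependyma and an adaptor gene of mitochondrial transport, the changes were 4.44 ± 0.16 and 2.35 ± 0.32. At phtf2/tmem60 they were 3.85 ± 0.26 and 2.42 ± 0.34. At ndufa8/morn5 the respiratory complex I gene ndufa8 rose by 2.35 ± 0.27 and morn5 by 5.43 ± 0.29, from 2.18, 2.25 and 0.960 CPM to 67.9 and 93.6 CPM. With dnE2f4 at 6 h none of these 8 genes passed, and their log2 fold changes ran from -0.53 (morn5) to -0.17 (tmem60).

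The 4 pairs that fell together most were dbf4/slc25a40, baz1b/nsun5, hnrnpul2/ttc9 and rrp1b/hsf2bp. At dbf4/slc25a40, the regulatory subunit gene of the replication kinase Cdc7 beside a mitochondrial carrier gene, dbf4 read 55.2, 51.4 and 62.7 CPM at 3 h and 14.3 and 15.2 CPM at 9 h. Its change was -1.93 ± 0.17 and that of slc25a40 -1.93 ± 0.27. At baz1b/nsun5, for a chromatin remodeller and a ribosomal RNA methyltransferase, the changes were -1.96 ± 0.33 and -1.88 ± 0.19. At hnrnpul2/ttc9 they were -2.20 ± 0.16 and -2.54 ± 0.38. At rrp1b/hsf2bp the nucleolar gene rrp1b fell by 3.196 ± 0.237, while hsf2bp stood at only 0.510, 0.572 and 0.295 CPM at 3 h and 0 and 0.112 CPM at 9 h, so its fitted -2.88 ± 1.19 is no exact size. None of these 8 genes passed with dnE2f4 at 6 h.

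At other pairs the genes parted. At pir/ctps2, with the peak at bases 4942516 to 4942726 of scaffold 160841 and starts 127 bases apart, pir, which encodes the nuclear protein pirin, read 9.57, 14.96 and 14.8 CPM at 3 h and 45.8 and 79.3 CPM at 9 h, a change of 2.26 ± 0.25. The CTP synthase gene ctps2 went from 21.9, 18.5 and 12.3 CPM to 3.82 and 1.46 CPM, a change of -2.75 ± 0.56. At c12orf45/slc41a2 the changes were -3.02 ± 0.49 and 2.21 ± 0.15, the latter in a magnesium transporter gene. At tmem180/cdr2 they were 2.35 ± 0.31 and -2.04 ± 0.42. At ppp2r3c/kiaa0391, with starts 102 bases apart, ppp2r3c, for a regulatory subunit of phosphatase 2A, rose by 2.10 ± 0.21, and kiaa0391, for the nuclease of mitochondrial RNase P, fell by 2.07 ± 0.22. At this last pair ppp2r3c was also lower with dnE2f4 at 6 h (-0.78 ± 0.19, adjusted p = 0.049) and kiaa0391 did not pass (-0.25 ± 0.18).

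The genes lowered by dnE2f4 were nearly all genes that rose with time. Of the 25 lower at 6 h, 24 rose from 3 to 9 h (96.0% of the 25, and 19.5% of the 123 that rose), and 1, mtfr1, fell. These comparisons share no library. Of all 516 targets lower with dnE2f4 at 6 h 421 rose (81.6%), of those at peaks of a single direction 168 of 232 (72.4%), and of those at pairs without a peak 6 of 6. Beside the 19.5%, 6.29% of all targets that rose were lower with dnE2f4 at 6 h. That share was 12.5% at peaks of a single direction and 3.3% at pairs without a peak.

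The remaining lists held members that moved with time and passed dnE2f4 in a single case. The axoneme members were ccdc40, needed to place dynein arms, and mdh1b, and both rose from 3 to 9 h, by 3.65 ± 0.21 and 4.33 ± 0.19. With dnE2f4 at 6 h mdh1b read 187, 159 and 197 CPM against 134, 110.1 and 114, which were apart without passing (-0.60 ± 0.16, adjusted p = 0.0665), and ccdc40 had -0.41 ± 0.18. Of all 64 axoneme targets, 64 rose over the time course and 6 were lower with dnE2f4 at 6 h. Their partners were tbc1d16, which rose by 2.22 ± 0.18, and the mitochondrial RNA gene fastkd2, which fell by 0.55 ± 0.20. The cilium transport members ift46, ift80 and hspb11 all rose, as did 68 of the 73 tested in that list, and none of the 3 passed with dnE2f4 at 6 h (7 of the 73 were lower). Ift80, of the intraflagellar transport complex B, rose by 2.80 ± 0.16 and its partner smc4, a condensin subunit gene, fell by 0.43 ± 0.18. Ift46 rose by 2.06 ± 0.27 together with the coatomer gene arcn1, by 1.10 ± 0.13.

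Of the 8 DNA replication targets at divergent peaks, 7 fell from 3 to 9 h, as did 94 of the 116 in the list, and none passed with dnE2f4 at 6 h (7 of the 116 were lower). The polymerase gene pole read 39.2, 41.4 and 31.1 CPM at 3 h and 5.26 and 3.04 CPM at 9 h (-3.17 ± 0.38), beside the peroxisomal gene pxmp2, which fell by 0.77 ± 0.18. The GINS complex gene gins1 fell by 0.83 ± 0.33 and its partner mnf1 by 0.68 ± 0.27. The list of DNA repair had rmi1, hus1 and nbn, none of which passed with dnE2f4 at 6 h. Of all targets tested in that list, 2 were lower and 1 was higher with dnE2f4 at 6 h. From 3 to 9 h 53 of them fell and 16 rose. Among the members at divergent peaks 2 fell, hus1 and nbn, and 1 rose, rmi1. Over the time course rmi1 rose by 0.90 ± 0.25 beside hnrnpk, which fell by 0.74 ± 0.13, and the checkpoint clamp gene hus1 fell by 1.13 ± 0.24 beside c7orf57, which rose by 3.32 ± 0.21. Of the 6 mitosis targets, bora was lower with dnE2f4 at 6 h and the others did not pass, among them zwilch of the kinetochore (0.58 ± 0.26). In that list of 187, 6 were lower and 8 higher. The list of multiciliated cell regulators had no member at a divergent peak.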

How the data were processed

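Animal caps of X. laevis were profiled by RNA-seq (18 libraries) and E2f4-GFP ChIP-seq (2 pooled peak lists, with inputs not analysed here). The authors deposited an estimated count per target, as the eXpress column names in the file headers show, without scaling. The deposited counts of uniquely assigned fragments were an alternative. The other tools named in the submitters' processing notes are Bowtie, Bowtie2, DESeq, HOMER and STAR, without versions. Per the file headers, the authors ran HOMER on pooled replicates, and a peak needed an FDR of 0.001 and a 4-fold excess both over its input and locally. The deposited score is the same for every peak, so no stricter threshold could be set. Positions are on JGIv7b scaffolds, read from target identifiers, and no genome sequence was used.

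Peak and start positions were compared in Python 3.11.15. Estimated counts were rounded, filtered with filterByExpr, given TMM factors and entered into the quasi-likelihood test of edgeR 4.0.16 (robust, a mean per group) in R 4.3.3, in 14 libraries, with Benjamini-Hochberg adjustment over 20043 targets and a threshold of 0.05. Each SE was worked back from the test, as the absolute log2 fold change over the square root of its F statistic. CPM values use the TMM-scaled library sizes, except those of e2f4 and of the 9 h pair below, which use the library totals. DESeq2 1.42.0, other scalings, library sets, windows and leaving out each library were alternatives. The members, lists and the 14-library fit were chosen with earlier results of these data known.

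Named pairs were those with a centriole or multiciliated cell regulator gene, those with both genes passing for dnE2f4 at 6 h, the 4 per direction with the largest smaller change from 3 to 9 h, the closest and widest 2, and 2 per other list. The planned correlation of levels within a pair across libraries is not given. Pairing was checked because the labels number the replicates: deviations from the group means correlated at 0.83, 0.64 and 0.76 for the same number at 6 h and at -0.64 to 0.10 otherwise, so the numbers paired the 6 h libraries. At 3 h the same number gave 0.27 and 0.50 and other pairs -0.50 to 0.26. The deviations of the 2 dnE2f4 libraries there mirror each other, so these values do not decide the pairing. The single dnE2f4 library of 9 h has no deviation from its group mean, so no value could be computed there. In the block fit a number stands for 1 level across all times. No libraries of a group were duplicates (lowest chi-square per degree of freedom 14.7).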

Additional observations from a re-analysis of the deposited data

How the results depend on the processing

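The count of 175 divergent peaks and its 116 shared with the list without Multicilin stayed within 1.5 times under every alternative run, and no named gene reversed a passed call. The dnE2f4 counts depended on the libraries and the fit. In 16 libraries and in 18 joined by target, 0 targets passed at 3, 6 and 9 h (edgeR; at unadjusted p under 0.05 there were 23, 50 and 1 in the 16, and 16, 41 and 5 in the 18). Of all targets, 0 passed at each time in the 16, and 1, 0 and 0 in the 18. Targets passing at 3 h were 29 with the replicate block, 21 from DESeq2, 0 from the groups alone (42 at unadjusted p under 0.05), 0 from 15 libraries and 0 with a window of 500 bases. Of all targets these fits called 621, 402, 2 and 16, and the window kept the 57 of the main fit. Pairs with both genes passing at 3 h were 4 with the block and 2 from DESeq2, against 0. At 6 h the targets were 76 with the block, 95 from the 6 h groups alone with the block (74 lower, 21 higher; an alternative chosen after seeing the data, like the 15 libraries), and 42 from DESeq2. Of all targets these fits called 3191, 4294 and 1392, against 690 in the main fit. Pairs at 6 h were 12 with the block, 16 from the 6 h groups with the block, 7 from DESeq2, 1 from the groups alone and 0 in the 16 and 18 libraries. At 9 h targets were 49 with the block, 34 from DESeq2 and 17 from 15 libraries, and pairs 7, 3 and 2. Of all targets these fits called 2175, 1072 and 566, against 227 in the main fit. Pairs at 9 h were 0 in the 16 and 18 libraries and with the window of 500 bases. From the 9 h groups alone neither a target nor a pair here was called, and few of all targets were. From 6 to 9 h targets were 55 in 18 libraries and 180 with the block, and pairs moving one way 3 in 18 libraries, 27 with the block, 3 from the groups alone and 17 by library size alone. Of all targets these 4 fits called 3605, 9206, 4343 and 6147, against 5767 in the main fit. Among the alternative fits, shares of all head-to-head pairs are given for the block and DESeq2 at 6 h alone. The other pair counts have no such share beside them. The window of 500 bases changed only which peaks were counted, not the fit. It left out tchp/gltp, with a start 716 bases from the peak centre, and spice1/zdhhc23, with one 508 bases away. The cause of the other changes was not tested.

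Leaving out each library in turn gave at 6 h 10 to 27 targets and 0 to 4 pairs. The lowest counts came without replicate 3 of Multicilin at 6 h (10 targets), replicate 2 of dnE2f4 (12), replicate 3 of dnE2f4 (14) and replicate 2 of Multicilin (16), with 0, 0, 1 and 1 pairs. Of all targets 205, 241, 285 and 431 passed there, against 690 in the main fit. The 25 kept their direction in each of these fits, and 8 passed in all 6 that left out a 6 h library (adam9, ahsa1, bora, ccp110, kiaa0753, wdr90, zdhhc23 and rabl2b on scaffold 253809). At 3 h the range was 0 to 9 targets and 0 to 0 pairs, and at 9 h 0 to 12 and 0 to 1 over 13 fits, with 0 without Multicilin 9 h replicate 3 and 7 without Multicilin 3 h replicate 2 or dnE2f4 6 h replicate 2. The single dnE2f4 library of 9 h could not be left out. Of all targets 202 passed at 3 h in the fit with 9 targets here, without Multicilin 3 h replicate 3, against 57 in the main fit. At 9 h 121 and 143 of all targets passed in the fits with 7 here, against 227 in the main fit. Few of all targets passed at 9 h without Multicilin 9 h replicate 3. From 3 to 6 h the range was 173 to 193 targets and 37 to 44 pairs, from 3 to 9 h 214 to 242 and 52 to 62, and from 6 to 9 h 72 to 114 and 2 to 10, with 72 targets and 3 pairs without Multicilin 9 h replicate 3, 2 pairs without Multicilin 9 h replicate 1, and 3, 5 and 5 without Multicilin 6 h replicates 1, 2 and 3. Without Multicilin 9 h replicate 3, fewer of all targets were also called from 6 to 9 h than in the main fit. Calls of all targets are not given beside the other ranges over time. Among the named genes 227 values under an alternative no longer passed and 46 newly passed, against 3642 that did neither. Precision was low for hsf2bp, which stood at 0 to 0.572 CPM in Multicilin libraries, with an SE of 1.19 for its change from 3 to 9 h.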

Other observations

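Some gene pairs present at 2 places had a gene that passed with dnE2f4 at 6 h at one place and not at the other. The adam9/tm2d2 pair on scaffold 59267 had adam9 lower with dnE2f4 at 6 h, at 46.7, 57.6 and 48.0 CPM against 20.4, 18.2 and 14.9 CPM (-1.50 ± 0.24). The adam9 target on scaffold 27313 read 18.8, 14.8 and 10.6 CPM against 20.5, 15.1 and 14.7 CPM (0.19 ± 0.25). From 3 to 9 h the former rose by 2.40 ± 0.26 and the latter had -0.61 ± 0.29, which did not pass. For map2k1/tipin the map2k1 target on scaffold 36401 rose by 1.55 ± 0.15 and was lower with dnE2f4 at 6 h, while that on scaffold 58049 had -0.08 ± 0.15 over the time course and -0.22 ± 0.13 with dnE2f4. The partner tipin fell over the time course at both places, by 1.55 ± 0.17 and 1.31 ± 0.19. For armc1/mtfr1 the mtfr1 target on scaffold 230826 was lower with dnE2f4 (-1.27 ± 0.26) and that on scaffold 58038 had 0.25 ± 0.15. The difference between places was not tested, and all of these places carried a peak.

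The pair of 9 h libraries left out was read for the lowered genes, scaled by library totals and with no test. Bora stood at 34.1 CPM under the label Multicilin and at 125 CPM under the label dnE2f4, where the other Multicilin libraries had 98.9 and 153 CPM and the dnE2f4 library in the fit 43.0 CPM. For ccp110 the values were 92.4 and 270.3 CPM, against 263 and 259.8 CPM and 116 CPM. For spice1 they were 67.5 and 211 CPM, against 203 and 249 CPM and 88.9 CPM. In all 3 genes, as for e2f4, the pair stood opposite to its labels.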
